A study of Homo sapiens with 15 samples.

Results

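The data describe 516 windows of 1 kb of the human genome, at which DNA methylation was largely kept when UHRF1 was knocked down in 3 clones of HCT116 cells and was lost when DNMT1 was knocked down in 2 bulk populations. The windows were chosen from non-overlapping autosomal windows by their CpG count and by the methylation level (mC, methylated reads over all reads, summed over the CpGs of a window) measured in the Baseline and Knockdown libraries. A window had to hold 10 to 30 CpGs, to have at least 100 reads in every library and to have a Baseline mC of at least 80% in all 5 populations, and 490647 windows met these conditions and are called eligible. The 516 members among them (0.105%) lost at most 10 percentage points at Knockdown in the clones Cl3 and Cl6, at most 15 points in the clone Cl9 and at least 35 points in the bulk populations R1 and R2. Baseline and Knockdown values of the members are therefore a description of the choice and carry no test. The Recovery libraries entered the choice only by the minimum of 100 reads, and not by their methylation levels.

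HCT116 is a colorectal carcinoma cell line, and a short hairpin RNA (shRNA), induced by doxycycline, targeted the 3' untranslated region of either UHRF1 or DNMT1 in its cells. Each of the 5 populations was sequenced by whole-genome bisulfite sequencing at 3 stages, which gave 15 libraries in 6 groups of 3 (shUHRF1) or 2 (shDNMT1). Baseline cells were cultured for 14 days without doxycycline, Knockdown cells for 14 days with 10 ng/mL doxycycline, and Recovery cells for 28 days, with doxycycline for the first 14 days and without it for the next 14. All shUHRF1 populations were single clones and all shDNMT1 populations were bulk cultures, so the shRNA, the clonal or bulk origin and the deposited table cannot be told apart. The populations are cultures of 1 cell line. The p-values rest on a spread estimated over clones and bulk populations together, not over the clones alone. The bulk populations differed less from each other in methylation than the clones did.

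DNMT1 is the methyltransferase that restores methylation on the new strand after replication. UHRF1 binds CpGs that are methylated on the old strand only, ubiquitinates histone H3 and brings DNMT1 to these sites. In mammalian genomes, CpGs that lie far from other CpGs are known to lose methylation more readily than clustered CpGs when maintenance is incomplete. Alu elements are short interspersed repeats, rich in CpGs and normally methylated in somatic cells, and they hold a large part of the CpGs found in introns.

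The libraries held 317670080 to 593644411 reads at CpGs, with a median of 11 to 21 reads per autosomal CpG, and the 3 Cl9 libraries were the deepest of the clones. Over the whole genome, 62.1%, 57.1% and 42.5% of reads at CpGs were methylated at Knockdown in Cl3, Cl6 and Cl9, and 40.1% and 39.2% in R1 and R2, so that the total level in Cl9 was close to that of the bulk populations. A member had a median of 245 reads per library, at which 238 methylated reads of 250 have a 95% Wilson interval of 91.8 to 97.2% and 150 of 250 one of 53.8 to 65.9%. At the minimum of 100 reads, 60 methylated reads have an interval of 50.2 to 69.1%. These intervals cover counting error alone, and neighbouring CpGs share reads.

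The sequences are shown first, to show how CpGs are spaced in named members and which letters recur between them. For the windows named by rule below, the 30 bases of hg38 with the most CpGs were read from the plus strand, with CpGs in capitals. Members were numbered W1 to W516 in genome order. The following stretch comes from an intron of VPS26A, in a member with a wide difference in loss between bulk populations and clones.
W274, chr10:69126223-69126252: ggcCGaggtgggCGgatcaccttgaagtCG
Members in introns of NFAT5 and UBE2H and in a coding-exon window of ARID2 gave stretches of the same kind, with 3 or 4 CpGs in 30 bases.
W414, chr16:69598734-69598763: gtcagCGtaggcCGggcaCGatggctcaCG
W214, chr7:129892172-129892201: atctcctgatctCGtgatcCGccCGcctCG
W322, chr12:45904402-45904431: ctatggagaggctgggCGCGgtggctcaCG
Other members had clustered CpGs without letters of this kind, as in an intergenic window of chromosome 1, in the coding-exon window of GPATCH8 and in an intron of UBE2H, where CpGs lie in a dinucleotide repeat.
W2, chr1:8129186-8129215: ggCGgagggCGgagggCGgaggggaagcCG
W438, chr17:44435099-44435128: ttttctacttctaggacaCGgCGcCGttCG
W216, chr7:129944743-129944772: cacacacaCGcaCGcaCGcaCGCGcatgCG
For contrast, this stretch comes from an intron window of BCAR1 that was lost in bulk populations and clones alike.
BCAR1 window, chr16:75244487-75244516: CGccatctccctggcCGgcatcagagggCG

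Many of these stretches resemble the Alu consensus, and this was counted with short strings of it on both strands. The string GTAATCCCA occurred in 402 of 516 members (77.9%), against 49.8% of all eligible windows and 47.3% of the windows lost in bulk that were not members. The string was chosen after member sequences had been seen, and a match is a description of letters only. Of the 4435 windows that were spared in the clones but lost less than 35 points in at least 1 bulk population, 71.1% held it. The difference between members and eligible windows was present in each class of CpG count, from 70.3% against 44.4% at 10 to 14 CpGs to 87.8% against 50.5% at 25 to 30 CpGs.

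A neighbouring part of the Alu consensus holds a CpG, and its strings do not overlap with the first. The string with the CpG, GGCTCACGC, was found in 36.2% of members and 21.5% of eligible windows, and the same letters with T in place of the C of the CpG, GGCTCATGC, in 23.4% and 16.2%. Further along the element, CGGGAGGCT was held by 29.3% of members and 16.4% of eligible windows. TGGGAGGCT was held by 40.7% and 29.1%. The place of its matches in the element was not determined, so these strings need not be forms of the same site. The other windows spared in the clones had shares near those of the members, with 33.8% for GGCTCACGC, 22.5% for GGCTCATGC, 23.5% for CGGGAGGCT and 42.4% for TGGGAGGCT, the last above the share of the members. Copies of the first string and membership went together over the eligible windows, of which 0.0463% were members with no copy, 0.153% with 1, 0.16% with 2 and 0.229% with 3 or more. The median number of CpGs also rose with the copies, from 14 to 18. Over the eligible windows the median Knockdown change went from -12.8 points with no copy to -9.87 with 3 or more in Cl3, from -19.9 to -16.6 in Cl6 and from -33.9 to -27.9 in Cl9, and from -41.5 to -39.8 in R1 and -42.5 to -41.2 in R2. Near-identical copies of a repeat can share reads, and how such reads were placed is not given in the sources used here, so the values of single repeat-rich windows are uncertain in this respect. The 12-base strings of a member that recur inside it made up a median of 2.12%, against 0.809% in every 50th eligible window.

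Members had more CpGs than eligible windows, closer together and in less GC-rich sequence. The median was 18 CpGs against 15, and the median distance from a CpG to its nearest neighbour was 11 bp against 19 bp. Low-density CpGs, with the nearest CpG at least 20 bp away, made up a median of 32% of the CpGs of a member and 50% of an eligible window. The GC content was 44.1% against 46%, and the observed over expected CpG ratio 0.382 against 0.291. CpGs between A or T bases (WCGW) made up 13.3% against 20%, and those between G or C bases (SCGS) 35.7% against 29.4%. The share of members rose with the CpG count of the window, from 0.0603% of eligible windows with 10 to 14 CpGs to 0.214% with 25 to 30, while the share lost in both bulk populations stayed at 68.9 to 70.7%. The 4435 other windows spared in the clones had nearly the same spacing, with a median distance of 10 bp and 31.6% low-density CpGs, and a median of 16 CpGs. Coverage was lower in members, at a median of 14.9 reads per CpG against 17.8, and its part in these differences was not tested.

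**Figure D1:**
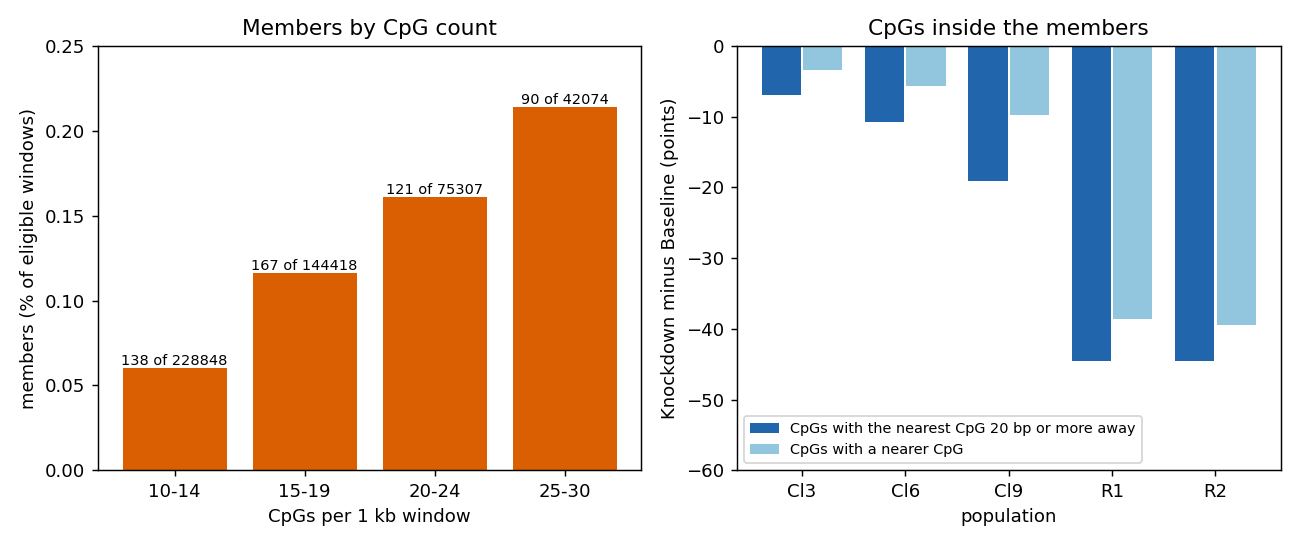
Left, members as a percentage of the eligible windows in 4 classes of CpG count, with the numbers above the bars, which rise from 138 of 228848 to 90 of 42074. Right, change in mC from Baseline to Knockdown in percentage points, summed over the low-density CpGs (dark) and the other CpGs (light) of the 516 members, with 1 value per population. The dark bar is the longer in every population.

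Inside the members, the 2997 low-density CpGs lost more methylation than the 6556 CpGs with a nearer neighbour. At Knockdown the low-density CpGs changed by -6.96, -10.8 and -19.1 points in Cl3, Cl6 and Cl9, and the others by -3.34, -5.7 and -9.8 points. In R1 and R2 the values were -44.5 and -44.6 points against -38.6 and -39.5 points. The size of these losses follows from the limits that chose the members. Over the eligible windows, low-density CpGs changed by -16.5 to -40.1 points in the clones and closer CpGs by -8.19 to -24.4. In R1 and R2 low-density CpGs of the eligible windows changed by -45.5 and -46.6 points and closer CpGs by -36.8 and -38.1. Against all eligible windows, many of which missed the bulk limit, low-density CpGs of members thus lost less there and closer CpGs more. In the windows lost in bulk that were not members, the changes were -47.7 and -48.6 points for low-density CpGs and -40.9 and -41.9 for closer CpGs. Against these windows both kinds of CpG lost less in members. At Recovery the low-density CpGs of the members remained further below Baseline in the clones, with changes of -2.05, -3.44 and -7.46 points against -0.876, -1.51 and -3.12, while in R1 and R2 they stood at -0.982 and -1.02 points against -0.696 and -0.771.

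The levels that chose the members were as follows. At Baseline their median mC lay between 96.3 and 97.6% in the 5 populations, against 94.4 to 96.4% for all eligible windows. At Knockdown the median was 92.4% in Cl3, 89.8% in Cl6, 83.1% in Cl9, 56.8% in R1 and 56.9% in R2, where eligible windows had 83.1, 76.8, 61.7, 53.3 and 52.2%. The lowest value of the clones was 65.7%, in Cl9, and the highest of the bulk populations 64.2%, in R1, and the limits on Baseline level and loss allow no overlap between them. At Recovery the medians were 96%, 95.4% and 91.5% in Cl3, Cl6 and Cl9 and 96.5% and 96.3% in R1 and R2, against 89.7, 88.5, 78.2, 94 and 94% for all eligible windows. The other windows spared in the clones had 96.13, 95.85, 92.58, 96.63 and 96.67%, in the same order.

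**Figure D2:**
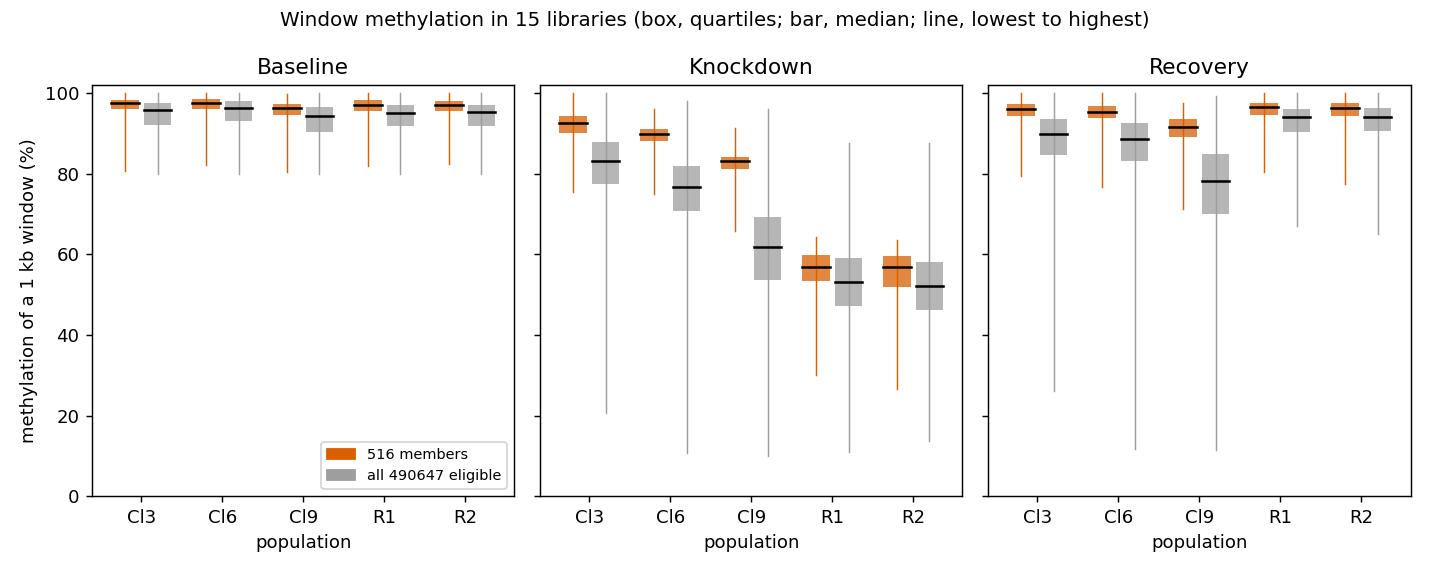
Methylation of 1 kb windows in percent in each population at Baseline, Knockdown and Recovery, for the 516 members (orange) and all 490647 eligible windows (grey), with boxes for quartiles, bars for medians and lines from the lowest to the highest window. Members sit above the eligible windows in the 3 clones at Knockdown, with medians of 83.1 to 92.4%, and near them in R1 and R2, with 56.8 and 56.9%.

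The median Knockdown change of members was -4.76 points in Cl3, -7.81 in Cl6, -13.4 in Cl9, -39.3 in R1 and -39.7 in R2. For the eligible windows it was -11.6, -18.6, -31.6, -40.7 and -41.8 points. The difference from the eligible windows in the clones was set by the limits. The mean bulk loss minus the mean clone loss, called the gap here, had a median of 31.8 points in members (lowest 25.6, highest 52.5) and 20.1 points in all eligible windows. Of the members, 140 lost at least 40 points in both bulk populations, 39 at least 45 points and 12 at least 50 points. In Cl3, 18 members had a higher level at Knockdown than at Baseline, and 29 members lost under 5 points in both Cl3 and Cl6.

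**Figure D3:**
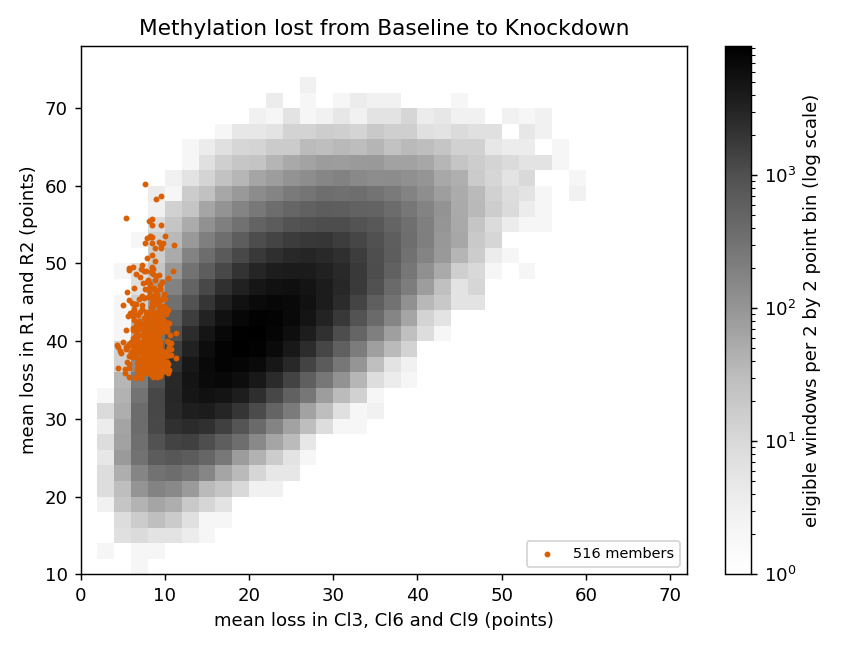
Mean loss of mC from Baseline to Knockdown in the clones (horizontal) and in the bulk populations (vertical), in percentage points. Grey squares count eligible windows on a log scale and orange points are the 516 members, which lie at clone losses of 4.35 to 11.3 points and bulk losses of 35.3 to 60.2 points, at the edge of a single cloud of windows.

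The members were the edge of a continuous distribution and not a separate group of windows. Most lay near a limit, since 304 members were within 2 points of the limit of 15 in Cl9, and 550 windows that met the other 4 limits were within 2 points outside it. The windows closest to this limit lost 14.99 points inside it and 15 points outside it, as rounded. For Cl6 these numbers were 237 and 275, for R1 137 and 147, for R2 119 and 129 and for Cl3 42 and 30. The limit of Cl9 removed the most windows, as 7747 windows met the other 4 limits, with a median loss of 22.9 points in Cl9 against 31.6 points in all eligible windows. Of these windows 6.66% were within the limit of Cl9, whereas 2.16% of all eligible windows lost at most 15 points there. When the limits of Cl3, Cl6 and R1 alone were applied, 11058 windows were found. Cl9 and R2 had entered this choice by their Baseline level and read counts, though not by their loss, so the values are a description. These windows lost a median of 22.2 points in Cl9 and 38.2 points in R2, against 31.6 and 41.8 points in all eligible windows. Of these, 70.1% lost at least 35 points in R2, against 81.7% of all eligible windows. Of the 4951 windows spared in all 3 clones 10.4% were members, while 69.9% of all eligible windows were lost in bulk. Only 5 eligible windows were spared in the clones and also lost at most 15 points in R1 and R2. Which windows are members also depended on how mC was computed, as 210 of the 516 (40.7%) remained when CpGs under 5 reads in any library were dropped and the sum of reads was replaced by an unweighted mean over the rest, among 529 windows found that way. With these CpGs dropped and the sum of reads kept, 273 of the 516 (52.9%) remained, among 453.

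Members lay mostly in introns of protein-coding genes. By GENCODE annotation 340 members (65.9%) were intronic, against 45.2% of eligible windows, and 75 (14.5%) were intergenic, against 26.8%. Coding exons were touched by 46 members (8.91%, against 12.9%), and 408 (79.1%, against 63.3%) were in a protein-coding gene. Of the other windows spared in the clones 66.7% were intronic and 11.9% intergenic, 12.2% touched coding exons and 83.6% were in a protein-coding gene. Promoters, from 1000 bp upstream to 100 bp downstream of a 5' end, held 11 members (2.13%), against 1.35% of eligible windows and 20 of the 4435 other spared windows (0.451%). The median distance to the nearest coding start was 21120 bp, against 32940 bp in eligible windows and 32440 bp in the other spared windows. Members were found on all 22 autosomes, at 0.0663% (chromosome 5) to 0.15% (chromosome 12) of eligible windows. Of the members 3 pairs were directly adjacent, 22 had another member within 10 kb and 90 within 100 kb.

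The promoter members named here were picked out after their values were seen. They included windows at SEC22B, AUP1 and DQX1, ATG5, MKX, SLC39A13, ATF7IP, EID3 and TXNRD1, NCOR1 and PIGL, ETHE1 and ZNF575, and EIF6. Where a pair of genes is named, the window overlapped each gene or the 1000 bp upstream of it. Such a window need not be the promoter of both. SEC22B is a vesicle fusion protein of transport between endoplasmic reticulum and Golgi, ATG5 is required for autophagosome formation, NCOR1 is a nuclear receptor corepressor and TXNRD1 is a thioredoxin reductase. The gaps of these windows ran from 33.3 points (AUP1 and DQX1) to 52.5 points (SEC22B). Since promoters were windows with a Baseline mC of at least 80%, unmethylated CpG islands could not be among them.

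A total of 418 protein-coding genes had a member, 34 of them 2 or more and none over 3. Zinc finger genes, which encode DNA-binding proteins often grouped in clusters, held 12 members among 5335 eligible windows (0.225%), in 11 genes including ZNF7 with 2. Solute carrier genes held 8 of 6206 windows (0.129%) and lncRNA genes 57 of 72911 (0.0782%), against 0.105% of all eligible windows. Histone genes held 1 of 74 windows. Clustered protocadherin, HOX, olfactory receptor and collagen genes held none of 61, 106, 162 and 1280 eligible windows.

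The widest gap of all members, 52.5 points, was that of W47 (chr1:120177001-120178000, 24 CpGs) in the SEC22B promoter. Its mC at Baseline, Knockdown and Recovery was 97.1%, 89.2% and 94.6% in Cl3, 90%, 89.1% and 96.2% in Cl6 and 97.3%, 83.2% and 93.4% in Cl9. The same stages gave 95.6%, 41.7% and 96.3% in R1 and 98%, 31.5% and 97.2% in R2. All 5 Recovery values were between 93.4 and 97.2%.

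The next members by gap were W464 and W274. W464 (chr18:50867001-50868000, 21 CpGs, gap 50.5 points) was intergenic. Its levels at the 3 stages were 93.1%, 92.4% and 94.6% in Cl3, 94%, 88.7% and 94.4% in Cl6 and 94.5%, 84.4% and 88.2% in Cl9. They were 94.6%, 30.2% and 93.9% in R1 and 94.9%, 47.6% and 93.8% in R2. W274 (chr10:69126001-69127000, 23 CpGs, gap 49.5 points) lay in an intron of VPS26A, which encodes a subunit of the retromer sorting complex. It had 97.8%, 91.8% and 96.4% in Cl3, 99%, 90.7% and 96.8% in Cl6 and 97.5%, 85.1% and 94.7% in Cl9. It had 97.8%, 43.4% and 97.8% in R1 and 97%, 34.7% and 98.9% in R2. In both windows Cl3 was the least changed at Knockdown and R1 and R2 fell below 50%.

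W2 (chr1:8129001-8130000, 28 CpGs) was intergenic and W357 (chr13:95257001-95258000, 12 CpGs) lay in an intron of ABCC4, an efflux transporter of organic anions and drugs. At W2 the Knockdown levels were 91.2, 87.8 and 82.6% in Cl3, Cl6 and Cl9 and 31.7 and 44.2% in R1 and R2, from Baselines of 96.2 to 97.5%. At W357 they were 85, 84.5 and 78.5% and 42.4 and 33.2%, from Baselines of 88 to 94.3%. R1 was the lower of the bulk populations at W2 and the higher at W357.

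The 3 adjacent pairs were in PBRM1, WDR82 and ZNF7. PBRM1 encodes a subunit of the PBAF chromatin remodelling complex, WDR82 a subunit of the histone H3 lysine 4 methyltransferase complexes SET1A and SET1B, and ZNF7 a zinc finger protein. In the PBRM1 intron (chr3:52565001-52567000) the Knockdown levels of W112 and W113 were 94 and 94.7% in Cl3, 90.4 and 88.9% in Cl6, 81.7 and 80.5% in Cl9, 51.7 and 53.5% in R1 and 51.2 and 55.6% in R2. In the WDR82 intron (chr3:52274001-52276000) those of W110 and W111 were 90.6 and 92.1%, 91.6 and 92.6%, 80.7 and 84.2%, 61.3 and 59.7%, and 59.4 and 59%, in the same order. The ZNF7 pair (chr8:144833001-144835000) lay over exons and had 95.1 and 94.8%, 89.7 and 92.1%, 83.3 and 82.2%, 61.3 and 54.9%, and 61 and 54%. The clones stand above the bulk populations in every member because of the limits, and the limit of Cl9 was the loosest of the clones.

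The 3 genes with 3 members were GPATCH8, NFAT5 and UBE2H. GPATCH8 encodes a protein with a G-patch domain, NFAT5 the transcription factor of the response to hypertonic stress, and UBE2H an E2 ubiquitin-conjugating enzyme. Knockdown levels of the GPATCH8 windows W438, W439 and W440 were 94.4, 93.3 and 92.3% in Cl3, 89.3, 84.6 and 88.7% in Cl6, 83.2, 83.6 and 82.3% in Cl9, 60.6, 58.4 and 59.7% in R1 and 55.8, 58.7 and 61.2% in R2. The NFAT5 windows W413, W414 and W415 had 83.3, 92.9 and 97.1% in Cl3, 81.9, 90.3 and 92.9% in Cl6, 70.8, 85.4 and 84.9% in Cl9, 42.7, 62.3 and 60.6% in R1 and 27.5, 54.8 and 63% in R2. W413 (chr16:69596001-69597000, 15 CpGs) had the lowest Baseline of the 3 in Cl9, at 81.6%, and a gap of 46.5 points. In UBE2H the windows W214, W215 and W216 had 100, 94.8 and 92.9% in Cl3, 93.9, 90.9 and 90.5% in Cl6, 84.8, 84.4 and 83.8% in Cl9, 61.8, 60.9 and 58.6% in R1 and 58.1, 55.9 and 48.8% in R2. The first of them showed no loss in Cl3, with 98.8% at Baseline and 100% at Knockdown.

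Among the genes with 2 members, ACACA and ARID2 came first by symbol. ACACA encodes acetyl-CoA carboxylase, which makes the malonyl-CoA used in fatty acid synthesis, and ARID2 a DNA-binding subunit of the PBAF complex. Knockdown levels of the ACACA intron windows W432 and W433 were 89.1 and 93.9% in Cl3, 89.3 and 91.7% in Cl6, 80.2 and 84.9% in Cl9, 58.5 and 59.1% in R1 and 56.4 and 61.7% in R2. Those of W321, intronic in ARID2, and W322, over a coding exon of it, were 98.1 and 93.1% in Cl3, 90.1 and 89.6% in Cl6, 85.1 and 82.4% in Cl9, 59.9 and 59.6% in R1 and 55.8 and 55.1% in R2.

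For contrast, 3 windows lost in bulk had the smallest gaps, which were below 0 because they lost more in the clones. They were a window in the lncRNA gene PSG8-AS1 (chr19:42822001-42823000, gap -7.38 points), an intergenic window (chr1:30326001-30327000, -6.15 points) and an intron window of BCAR1 (chr16:75244001-75245000, -6.06 points), an adaptor protein of focal adhesions. Their median distance to the nearest CpG was 31, 32 and 20 bp, and 61.5, 53.8 and 50% of their CpGs were low-density. In the 5 members with the widest gaps the share was 14.3 to 25%. The CpG counts were unlike, at 13, 13 and 12 in the contrast windows and 12 to 28 in those members. Among windows with 10 to 14 CpGs, the median share was 60% in eligible windows and 42.9% in members. At the BCAR1 window mC over the 3 stages was 94.8%, 35.3% and 58% in Cl3, 91%, 21.7% and 33% in Cl6 and 93.7%, 26.2% and 59% in Cl9. It was 92.4%, 38.5% and 89.9% in R1 and 93.3%, 28.4% and 83.3% in R2. This window had not returned to its Baseline in any clone.

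Apart from the 3 adjacent pairs, windows next to the members were not chosen by the rule, and their values show the surroundings in which the members lay. Windows 1 kb away on the lower and the higher coordinate side with at least 100 reads in every library (317 and 320 windows, of which 69.7 and 70.6% were eligible) changed at Knockdown by a mean of -9.21 and -9.8 points in Cl3, -15 and -15.7 in Cl6 and -25 and -26.1 in Cl9, where the members had -4.6, -7.4 and -13. In the bulk populations the neighbours changed by -39.3 to -40.7 points, close to the -40.6 and -41.2 of the members. The limits on Knockdown loss applied to the members and not to their neighbours, so a step between them follows from the choice and is given as a description. Recovery minus Baseline uses Baseline levels, which had entered the choice, and Recovery levels, which had not. For it the neighbours at 1 kb had mean changes of -3.99 and -4.74 points in Cl3, -5.7 and -5.92 in Cl6 and -11.1 and -12.2 in Cl9. The members had -1.25, -2.07 and -4.56. At Knockdown windows 10 kb away from a member changed by -10.9 and -11.1 points in Cl3, -17 and -16.6 in Cl6 and -27 and -26.8 in Cl9. Around every 100th window lost in bulk that was not a member, windows 10 kb away changed by -13.1 and -13 points in Cl3, -20 and -20 in Cl6 and -32.1 and -32 in Cl9. In R1 the windows 10 kb from members changed by -38.4 and -38.1 points and those of the comparison by -40 and -39.9, and in R2 by -39.1 and -39 against -41.2 and -41.1. The surroundings of members had thus lost less than those of the comparison in all 5 populations at this distance. The set from which the comparison was drawn had itself lost more than the members. Its mean clone loss had a median of 22.7 points against 8.48, and its mean bulk loss 44 against 39.6. Surroundings of all eligible windows are not given, so this difference is a description. The Baseline level of the neighbours at 1 kb was 89.3 to 91.7%, lower than the 95.3 to 96.7% of the members, since neighbours had no Baseline minimum.

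**Figure D4:**
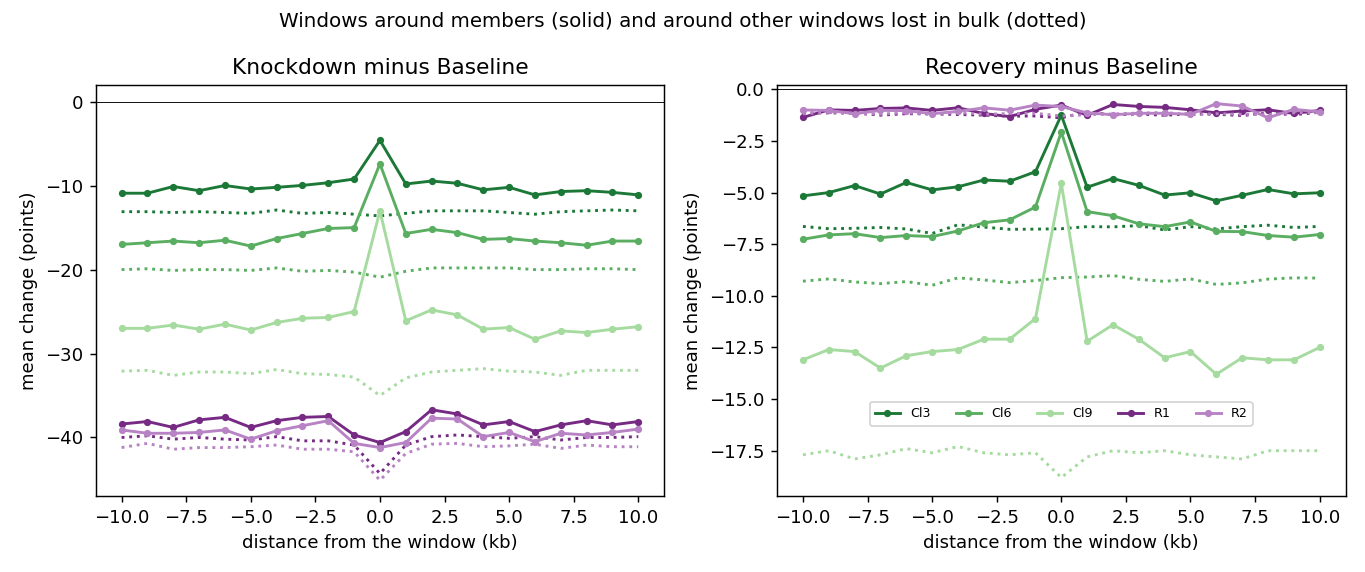
Mean change in mC in percentage points against distance in kb from the window, for Knockdown minus Baseline (left) and Recovery minus Baseline (right), with 1 colour per population. Solid lines surround members and dotted lines every 100th other window lost in bulk. The Knockdown values at distance 0 were limited by the choice of members. Away from 0, solid lines lie above the dotted lines of the same colour in all 5 populations at Knockdown and in the clones at Recovery.

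The deposited domain lists, made separately for each library, placed members mostly in highly methylated domains (HMDs) where the lists held such domains. An HMD is a stretch outside all other called domains that was kept only if its mean mC in that library was high, so HMD shares at Baseline and Knockdown follow in large part from the choice of members and are given as a description. At Baseline 98.8 to 99.8% of members and 93.7 to 96.7% of eligible windows were in an HMD. At Knockdown 95% of members and 61.3% of eligible windows were in one in Cl3, and 70% and 20.5% in Cl6. The other windows spared in the clones had 96.1% in Cl3 and 69.2% in Cl6. In Cl9 and R1 no eligible window was in an HMD at Knockdown, and in R2 1 was, so HMDs give no comparison there. Partially methylated domains of Cl9 at Knockdown held 85.9% of members, 94.8% of eligible windows and 94.8% of the other spared windows. At Recovery 83.3% of members were in an HMD in Cl9, against 38.8% of eligible windows and 85.6% of the other windows spared in the clones. In R1 and R2 at Recovery the values were 99.4 and 98.6% against 91.8 and 91.3% of eligible windows and 99.5 and 98.6% of the other spared windows. These domains span far more than 1 kb, so they describe the surroundings of a member as well as the member.

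The methylation levels of the Recovery libraries, from 14 days without doxycycline, did not enter the choice. The Baseline and Knockdown levels against which they are set here did. The changes below are therefore a description, and in Cl3 the median loss of members was under 5 points at Knockdown already. The median change from Baseline to Recovery was -1.25 points in Cl3, -2.05 in Cl6 and -4.42 in Cl9, with a mean of -2.58 ± 1.65 (SD, n = 3 clones). In the bulk populations, where members had lost a median of 39.3 and 39.7 points, it was -0.653 points in R1 and -0.786 in R2 (-0.719 ± 0.0934, SD, n = 2). All eligible windows stood further below Baseline in the clones, at -5.27, -7.1 and -15.3 points, and at nearly the same level in the bulk populations, at -1.04 and -0.989 points. The other windows spared in the clones stood nearer to Baseline than members. Their medians were -1.02, -1.68 and -3.49 points in Cl3, Cl6 and Cl9 and -0.357 and -0.362 points in R1 and R2. Members had regained a median of 3.33, 5.42 and 8.59 points since Knockdown in Cl3, Cl6 and Cl9, and 38.8 and 39 points in R1 and R2. Of the members, 94.6% in Cl3, 89.9% in Cl6, 61% in Cl9, 97.7% in R1 and 96.3% in R2 were within 5 points of Baseline, against 47.3, 31.5, 5.71, 93.7 and 94.3% of eligible windows. Cl9 was the clone furthest from Baseline at Recovery in members and in all eligible windows.

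**Figure D5:**
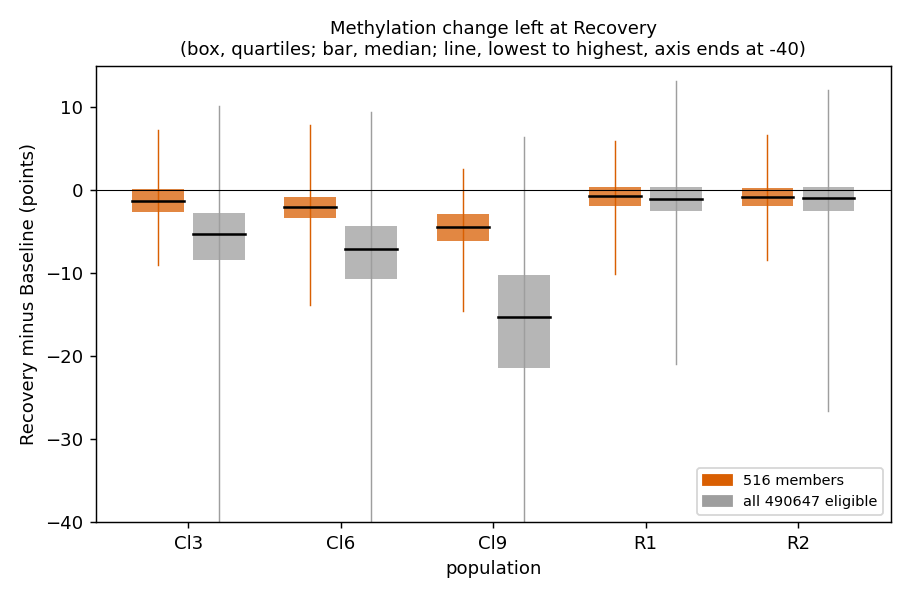
Recovery minus Baseline in percentage points per population, for the 516 members (orange) and all 490647 eligible windows (grey), with boxes for quartiles, bars for medians and lines from lowest to highest, clipped at -40. Member medians run from -4.42 (Cl9) to -0.653 (R1), and the eligible windows lie lower than the members in the 3 clones.

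Each window was tested with edgeR's quasi-likelihood test on methylated and unmethylated counts, with Benjamini-Hochberg adjustment over all 490647 eligible windows and a call at an adjusted p under 0.05. In the shUHRF1 clones 234 of 516 members (45.3%) were lower at Recovery than at Baseline and none was higher, while 92.7% of all eligible windows were called lower. The members' share was thus below the background. Members were chosen for small Knockdown losses in these same clones and had less to regain, so the lower share is a description. The Baseline libraries of this contrast also entered the choice of the members, which bounds what this count can show. Without Cl9 94 members and 73.5% of all eligible windows were called, without Cl6 153 and 85.9%, and without the population block 110 and 80.7%. In the shDNMT1 populations edgeR called 0 members lower, with 0% of all windows called, and 25 members were lower and 1 higher at an unadjusted p under 0.05. limma also called 0 members and 0% of all windows, with 46 lower and 4 higher before adjustment.

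The change from Baseline to Recovery differed between the shRNAs in 22 members (4.26%), all of them lower in the clones, against 39.7% of eligible windows called in that direction. Their differences ran from -2.81 to -1.58 on the log2 odds scale, with edgeR adjusted p-values of 0.00831 to 0.0497. The Baseline libraries of this contrast also entered the choice of the members, with limits in opposite directions in the clones and the bulk populations, which bounds what the count can show. The count moved with the calls over all eligible windows when a population was left out. It was 0 without R1 and 0 without R2, where 0.406 and 0.112% of all windows were called lower in the clones. Without Cl3 it was 55 (58.7% of all windows), without Cl6 11 (25.2%), without Cl9 13 (20.2%) and without the population block 0 (0.00224%). The smallest adjusted p belonged to W393, in an intron of TIPIN, a protein that stabilises stalled replication forks, and W410, in an intron of RSPRY1. Both were picked out after their values were seen. At W393 the clones changed by a mean of -4.2 points and the bulk populations by 1.17 points (difference -2.75 on the log2 odds scale, edgeR adjusted p = 0.00831). At W410 these means were -4.49 and 3.49 points (-2.74, edgeR adjusted p = 0.00886). None of the members named by rule was among the 22.

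The Recovery level itself was compared between the shRNAs without Baseline. The Recovery libraries had entered the choice of the members by their read counts, though not by their methylation levels. They come from the same populations whose Knockdown losses the choice had limited. The calls and shares in this paragraph are therefore a description. edgeR called 0 of 516 members lower in the clones, against 6.15% of eligible windows, and 28 members were lower and 0 higher at an unadjusted p under 0.05. limma called 21 members lower (4.07%), against 28.1% of eligible windows. Without Cl9, which had the lowest Recovery level of the 5 populations in 448 members (86.8%), edgeR called 24 members, 21 lower and 3 higher, against 44% of eligible windows lower and 0.0986% higher. Without Cl3 it called 4 members and 19.7% of eligible windows, all lower. Without Cl6 it called 0 members and 0 of the eligible windows, so the background share also depended on the clones kept. All 3 clones were below both bulk populations at Recovery in 150 members (29.1%), against 74.2% of eligible windows. A member without a call is not shown to have equal levels.

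The 3 members furthest below Baseline at Recovery in the clones were W230, W210 and W45. They were picked by this same fall, and its Baseline libraries had entered the choice of the members. Their p-values for it are therefore a description. W230 (chr8:55771001-55772000, 12 CpGs), in an intron of TMEM68, changed by -9.01, -6.96 and -12.3 points in Cl3, Cl6 and Cl9 and by 1.3 points in R1 and 1.52 in R2. The fall in the clones was -1.35 on the log2 odds scale (edgeR adjusted p = 0.00263), and the difference from the bulk populations missed the threshold (-1.57, edgeR adjusted p = 0.0575). W210 (chr7:103376001-103377000, 10 CpGs), over a coding exon of SLC26A5, the motor protein prestin of cochlear outer hair cells, changed by -5.27, -13.8 and -8.4 points in the clones (-0.92, edgeR adjusted p = 0.0184) and by -6 points in R1 and -1.77 in R2. W45 (chr1:94256001-94257000, 20 CpGs), in an intron of ARHGAP29 changed by -8.23, -5.97 and -11.9 points in the clones (-2.23, edgeR adjusted p = 8.39e-06) and by -0.405 points in R1 and -3.28 in R2. At W45 all 3 clones were lower at Recovery than at Knockdown. The levels were 90.7 against 94.2% in Cl3, 92.1 against 92.6% in Cl6 and 82.9 against 83.1% in Cl9. At W230 Cl3 and Cl6 were also lower than at Knockdown and Cl9 was higher, and at W210 Cl6 was lower and Cl3 and Cl9 were higher.

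The 3 members furthest below Baseline in the bulk populations were W202, W312 and W511. They were picked by this change, and Baseline libraries had entered the choice of the members, so the values are a description. W202 (chr7:43745001-43746000, 17 CpGs), intergenic, changed by -10.1 points in R1, -4.06 in R2 and by 1.88, 3.34 and -9.66 points in Cl3, Cl6 and Cl9. W312 (chr11:120431001-120432000, 13 CpGs), over a coding exon of ARHGEF12 changed by -6.34 and -2.94 points in the bulk populations and by -0.464, -5.72 and -6.45 points in the clones. W511 (chr22:38855001-38856000, 18 CpGs), intergenic, changed by -0.504 and -8.42 points and by -4.58, -3.51 and -4.61 points. The edgeR adjusted p for the bulk change was 1 in all 3 windows. In the clones W511 was called lower (-1.48 on the log2 odds scale, edgeR adjusted p = 0.00333), and all 3 clones moved the same way there.

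Since Baseline libraries had entered the choice of the members, the calls in this paragraph are a description. Of the members with the widest gaps, none had a called change in the bulk populations at Recovery. W274 had a called fall in the clones, of -1.42, -2.22 and -2.82 points (-1.14 on the log2 odds scale, edgeR adjusted p = 0.0491). W321 of ARID2, at -3.39, -5.62 and -6.26 points in Cl3, Cl6 and Cl9, had the largest called fall of all members on the log2 odds scale (-2.93, edgeR adjusted p = 8.58e-05), since its Baseline was between 98.8 and 100%. In points its fall was smaller than that of W230. Both ZNF7 windows were called lower in the clones (-1.57 and -1.36, edgeR adjusted p = 0.000704 and 0.00516), with changes of -1.73 to -4.34 and -2.75 to -7.06 points. Of the 3 GPATCH8 windows W438 was called (-1.12, edgeR adjusted p = 0.0229), of the NFAT5 windows W414 and W415 (-1.58 and -1.37, edgeR adjusted p = 0.00416 and 0.0218), and of the UBE2H windows none, with adjusted p-values of 0.0513 to 0.663.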

How the data were processed

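The 15 HCT116 libraries were made for whole-genome bisulfite sequencing, in which a methylated cytosine is read as C. The authors aligned reads with the Meth10X pipeline and deposited counts of methylated and of covering reads at every CpG, in 3 tables (Cl3 with Cl6, Cl9, and R1 with R2), with no coverage filter. The submitters' processing notes name hg38 and bedtools 2.25.0. The 27852739 autosomal positions were checked against hg38, and each was a CpG cytosine. Per the study's methods, partially methylated, low-methylated and unmethylated domains were called with MethylSeekR. HMDs were what bedtools left outside these domains, kept where mean mC reached a minimum.

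Counts were summed over 1000 bp windows. Genes were from GENCODE release 44. Baseline and Recovery counts of all populations were fitted with edgeR 4.0.16 (methylation design, population as a block, common dispersion from every 20th window) in R 4.3.3, and limma 3.58.1 on log2 ratios with a pseudocount of 1 was an alternative. The Recovery level was fitted without the block. On 20000 simulated windows of the Baseline to Recovery contrast in the clones, 56% of 200 windows changed were called, and 0.885% of calls were false. The simulated fall was larger than the median change of members in any clone. Few windows were changed, and all libraries were given the same spread with no population effect. These shares are therefore not the power or the error rate of the test on the real windows. limma was not tried on simulated data.

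Per the labels, all libraries of a named clone or bulk replicate are 1 population, and this is the basis of the block. Over eligible windows, a population's deviation from its group mean at Baseline and that at Recovery correlated with r of 0.321 to 0.385 in the clones and 0.00263 in the bulk populations. In the bulk populations the block thus rests on the labels alone. No libraries were duplicates, although R1 and R2 at Baseline differed by little more than sampling noise (mean chi-square per window 1.04 for methylation and 4.76 for coverage).

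The members, the gene groups and the tests were chosen with earlier results of these data known. Named windows were the 5 members with the widest gap, the 3 runs of adjacent members, the 5 genes with the most members (ties by symbol), the 3 members lowest at Recovery in clones and in bulk populations, and 3 windows lost in bulk with the smallest gap. The genome copy used here marks no repeats, so strings of the Alu consensus, chosen after sequences were seen, stood in for a repeat share. Some items are not reported here.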

Additional observations from a re-analysis of the deposited data

Results flagged for a closer look

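The change from Baseline to Recovery differed between the shRNAs in 22 members by the interaction term of the edgeR fit, with a larger fall in the clones in each of them. These were 4.26% of members, against 39.7% of all eligible windows called in that direction, and there were 0 without R1 and 0 without R2. Among them, beside the TIPIN and RSPRY1 windows, W184 in the ATG5 promoter had a mean change of -7.49 points over the clones and of -0.661 points over R1 and R2 (-1.65 on the log2 odds scale, edgeR adjusted p = 0.0495), and was named after its values were seen. The Baseline libraries of this contrast also entered the choice of the members. The shRNA and the clonal or bulk origin cannot be told apart here.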

How the results depend on the processing

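Of 53 alternative results, 32 stayed within 1.5 times the reported count or 1 SD of the reported median. These include the counts of members called lower in the bulk populations, where 0 was compared with 0. A turned direction could be seen only in the medians, and none of them turned. With at least 200 reads in every library there were 122 members, of which 73 were lower at Recovery in the clones (96.5% of all windows) and 9 differed between the shRNAs (54.6%), since fewer windows could be tested. With losses of at most 5, 5 and 10 points in the clones 1 member was left. Leaving out the limit of 1 population gave 561 to 7747 members. Without the replicate block 110 members were called lower in the clones (80.7% of all windows) and 0 differed between the shRNAs (0.00224%). With limma 21 members differed in Recovery level, and 28.1% of eligible windows were called lower in the clones, against 6.15% with edgeR. Leaving out 1 clone at a time gave 94 to 264 members lower in the clones (73.5 to 94.2% of all windows). It gave 11 to 55 members that differed in change, with 20.2 to 58.7% of all windows called lower in the clones. For the Recovery level it gave 0 to 24 members, with 0 to 44% of all windows called lower in the clones. Median Recovery changes were -3.19 to -1.59 points in the clones with 1 of them left out. They were -0.786 to -0.653 points in the bulk populations with 1 of them left out. The lone bulk population then left was assumed to vary like the others. In the bulk populations 0 members and 0 of all windows were called lower under every alternative that kept both bulk populations. Windows shifted by 500 bp gave 537 members. Depth limits single windows, since at 100 reads 95 methylated reads allow a level of 88.8 to 97.8% (95% Wilson interval).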
